A study of Mus musculus with 6 samples.

Results

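A set of 10 genes that shape or mend the muscle fibre membrane were followed: Cav1, Cav3, Bin1, Mtm1, Dnm2, Dysf, Trim72, Anxa1, Anxa2 and Anxa6. They were chosen by name for their roles in caveolae, in the T-tubules and in membrane repair, and all 10 were found among the 23367 gene entries of the table and were tested. The data were polyadenylated RNA from the gastrocnemius, a calf muscle, of wild-type FVB mice in 6 libraries. E18.5 (embryonic day 18.5) was a pool of male and female animals, PN2 (postnatal day 2) was a pool of males, PN14 had replicate 1 and replicate 2, each from 1 male, and PN28 and the adult at 22 weeks were 1 male each. The E18.5 library is thus the only one with females. The RNA came from whole muscle, so fewer cells of a type and less RNA per cell cannot be told apart in any value below.

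The skeletal muscle fibre folds its surface in 2 ways that depend on these genes. Caveolae are small flask-shaped pits built from caveolins and cavins, which store spare membrane and gather signalling proteins. T-tubules are deep invaginations that carry the action potential to the calcium stores inside the fibre, and their shape depends on amphiphysin 2 (the product of Bin1), the phosphoinositide phosphatase myotubularin (Mtm1) and dynamin 2 (Dnm2). Contraction tears the fibre membrane, and the tears are patched in a calcium-dependent way by dysferlin (Dysf), the TRIM protein MG53 (Trim72) and annexins. Mutations of human CAV3, BIN1, MTM1, DNM2 and DYSF cause muscle disease.

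FPKM is a level per gene length, scaled only to the counts of its own library, and is used to compare genes with each other. Normalized CPM is the count divided by the library's total after TMM scaling, which evens out the bulk of genes between libraries, and is used for differences between stages. A gene was called when edgeR's quasi-likelihood test gave an adjusted p (Benjamini-Hochberg over 16882 genes) under 0.05 and the log2 fold change was at least 1 in size. The libraries held 125402932 to 157868359 counts on genes, and the 20 most abundant genes took 16.0% of them at E18.5 and 36.9% in adult muscle. Scaled by library size alone instead, all genes had a median log2 fold change of -0.662 from PN2 to PN14 and -1.079 from E18.5 to adult, against -0.012 and -0.054 with TMM. An FPKM that is lower in older muscle therefore has to be read against that shift. Each library had its own sequencing lane, so lane and stage cannot be told apart, and every test borrows its error from the 2 PN14 mice. The myofibre genes Acta1, Ckm, Des, Ryr1 and Ttn had a summed FPKM of 17570 before birth, 19868 at PN2 and 45967 to 59685 from PN14 on, with 0 of the 5 at 0 in any library. Most of that sum was Acta1 (14345 at PN2, 37682 and 30696 at PN14) and Ckm (4189, then 18755 and 13973). Des did not share the step, with 1188 at PN2 and 1284 and 1085 at PN14. With TMM all 5 were above 0 from PN2 to PN14, but 0 were called, beside 23.0% of all genes.

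**Figure D1:**
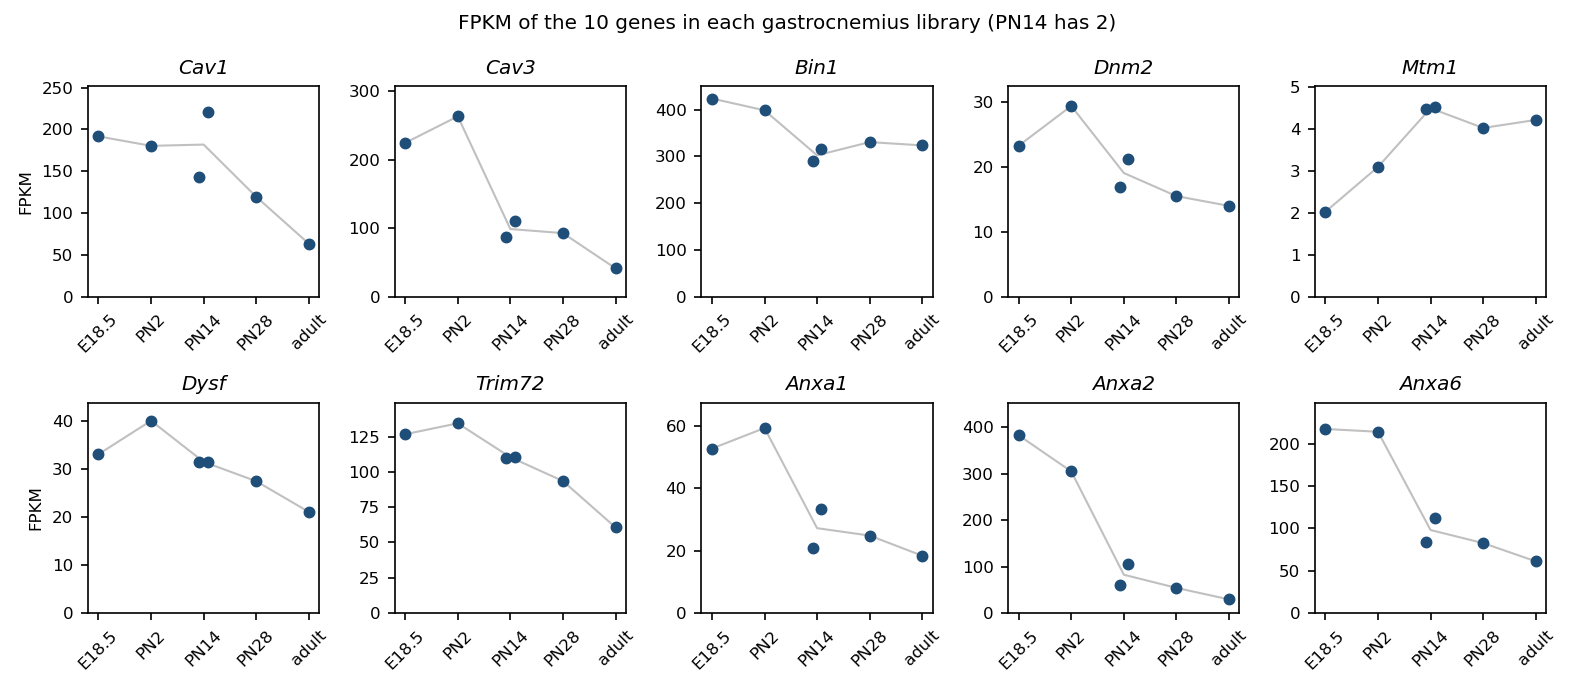
FPKM of each of the 10 genes (vertical axis, from 0, a separate scale in each panel) by stage (horizontal axis). Points are libraries, of which PN14 has 2, and the grey line joins the stage values, with the PN14 pair averaged; Anxa2 goes from 382 at E18.5 to 29.3 in adult muscle, while Mtm1 goes from 2.02 to 4.21.

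Between E18.5 and the adult, Mtm1 rose and Cav3 and Anxa2 fell. These were 3 of the 10 genes, while 44.9% of all tested genes were called in that comparison (21.4% rose and 23.6% fell). From PN2 to PN14, Mtm1 rose and Anxa2 fell, which is 2 of 10 beside 23.0% of all genes (11.8% rose and 11.2% fell). In neither comparison did the share of these genes that was called stand above the share of all genes. Bin1, Dnm2, Dysf, Trim72, Cav1, Anxa1 and Anxa6 were not called in either.

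The other intervals gave 0 called members in edgeR's quasi-likelihood test. From E18.5 to PN2 that test called 0.0296% of all genes at the same thresholds. Mtm1 was the 1 member with an unadjusted p under 0.05 in that interval. DESeq2 and edgeR's exact test called 0 members there. From PN14 to PN28 the quasi-likelihood test called 0.0178% of all genes, and 0 members had even an unadjusted p under 0.05. The other tools called 0 members there too. From PN28 to adult, 1 member (Cav3) had an unadjusted p under 0.05 and was called by DESeq2 and by the exact test. The quasi-likelihood test called 0.521% of all genes in that interval. How many of all genes DESeq2 and the exact test called was not counted. Nor was the share of all genes with an unadjusted p under 0.05 counted in any interval, so the called shares are no yardstick for those members. Without a test, 2 members differed at least 2-fold in normalized CPM from PN2 to PN14, beside 26.9% of genes, and 0 from PN14 to PN28, beside 3.35%.

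Cav1 and Cav3 encode the membrane-bending scaffold proteins of caveolae. Caveolin-3 is the muscle form, and caveolin-1 is made in endothelial cells, adipocytes, fibroblasts and smooth muscle. In mm9 both genes are on chromosome 6 and on the + strand, Cav1 at chr6:17256335-17291452 with 3 exons in its longest coding transcript and Cav3 at chr6:112409495-112422865 with 2. Their coding sequences, of 537 and 456 bases, matched at 305 of 456 aligned bases (66.9%). The longest stretch found in both coding sequences, whether aligned or not, was 15 bases. The 90 bases in which they were most alike lie in the last coding exon of each, at chr6:17289272-17289361 for Cav1 and chr6:112422290-112422379 for Cav3. They are printed here because they show how far reads can tell the genes apart, with the 17 differing bases in capitals.
Cav1: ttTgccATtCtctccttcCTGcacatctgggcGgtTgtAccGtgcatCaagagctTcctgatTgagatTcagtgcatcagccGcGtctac
Cav3: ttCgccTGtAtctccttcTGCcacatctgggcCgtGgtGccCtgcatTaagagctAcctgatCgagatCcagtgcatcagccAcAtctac
Not one stretch of 50 or 100 bases in the coding transcripts of any of the 10 genes was shared with a protein-coding transcript of another gene in the GENCODE M1 annotation.

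Cav3 came after Bin1 and Anxa2 by FPKM at E18.5 and at PN2, and it fell from E18.5 to adult. Its FPKM was 225 at E18.5, 263 at PN2, 87.2 and 110.1 for the PN14 pair, 92.6 at PN28 and 41.2 in adult muscle. Both PN14 libraries lay below E18.5 and PN2, and the adult was the lowest. In normalized CPM the values were 171, 200.2, 115 and 121, 130.35 and 63.7 in the same order. From E18.5 to adult the log2 fold change was -1.42 (SE 0.247, adjusted p = 0.00542 in edgeR's quasi-likelihood test), a level 2.68-fold lower. From PN2 to PN14 it was -0.77 (SE 0.204, adjusted p = 0.0373), past the p threshold but under the 2-fold one, so Cav3 is not among the called genes there. From PN28 to adult it was -1.03 (SE 0.245, adjusted p = 0.117), and this was called by DESeq2's Wald test (adjusted p = 0.0205) and by edgeR's exact test (adjusted p = 0.0193).

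The 250 bases before the Cav3 start, from RefSeq on GRCm38.p6 (chr6:112459255-112459504, + strand), are shown because Cav3 is 1 of the 3 called genes. Capitals mark the matches to 4 short motifs searched on both strands in the promoters of the 3 called genes: the E-box CANNTG, the GC box GGGCGG, the CCAAT box (those 5 letters) and the TATA box TATAAA, where overlapping matches count separately. The E-box is the motif bound by muscle regulators such as MyoD and by many other factors. In the same window before 32851 starts in RefSeq's mouse table, 66.2% held an E-box, 32.7% a GC box, 33.8% a CCAAT box and 12.4% a TATA box.
Cav3 promoter: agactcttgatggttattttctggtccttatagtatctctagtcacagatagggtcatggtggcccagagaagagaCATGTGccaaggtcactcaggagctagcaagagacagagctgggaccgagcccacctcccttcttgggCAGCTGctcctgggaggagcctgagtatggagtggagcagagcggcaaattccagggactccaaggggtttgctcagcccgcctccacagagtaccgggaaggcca
The Cav3 window held 2 E-boxes and none of the other 3 motifs.

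Cav1 was not called with TMM in any of the comparisons tested, which do not include PN14 to adult. Its FPKM was 192 at E18.5, 180.3 at PN2, 143 and 220.4 for the PN14 pair, 119 at PN28 and 63.2 in adult muscle. On this scale replicate 2 at PN14 was the highest of the 6 libraries, replicate 1 was below PN2, and the adult was the lowest. The PN14 replicates were 423 and 544 in normalized CPM, against 309 at PN2 and 221 in adult muscle. The log2 fold change was 0.65 from PN2 to PN14 (SE 0.321, adjusted p = 0.170), -0.78 from PN28 to adult (SE 0.363, adjusted p = 0.327) and -0.57 from E18.5 to adult (SE 0.362, adjusted p = 0.225).

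The course of Cav1 ran beside that of endothelial genes. The summed FPKM of 7 endothelial markers (Pecam1, Cdh5, Kdr, Tek, Tie1, Emcn and Eng) was 220.1 at E18.5, 216 at PN2, 200.07 and 295 for the PN14 pair, 148 at PN28 and 82.5 in adult muscle, and 0 of the 7 was at 0 in any library. Replicate 2 at PN14 was above replicate 1 by 0.56 on the log2 scale in that sum. Over the 6 libraries, the 3 genes with the profile nearest to Cav1 among 8830 genes were Lyn, Gng11 and Kdr, with root mean square differences of 0.0652, 0.072 and 0.0771 log2 units after centring and Pearson's r of 0.987, 0.985 and 0.982. Kdr encodes a VEGF receptor of endothelial cells. These r values are descriptions over the same 6 libraries, whose cell and RNA composition also differed, and the part of endothelial cells in the Cav1 values was not tested. For Cav3 the nearest genes were Nucb2, Plxna4 and Fzd1 (0.087, 0.095 and 0.116 log2 units).

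The ratio of Cav3 to Cav1 within a library does not depend on how libraries are scaled. Per gene length it was 1.17 at E18.5 and 1.46 at PN2, then 0.609 and 0.499 for the PN14 pair, 0.776 at PN28 and 0.651 in adult muscle. Cav3 transcripts thus outnumbered those of Cav1 in both perinatal libraries and were outnumbered in the 4 later ones. The cavins gave a second yardstick, chosen after their values were seen. Murc encodes the muscle cavin. The ratio of Cav3 to Murc was 1.88 and 1.95 at E18.5 and PN2, 0.884 and 0.975 at PN14, 1.09 at PN28 and 0.677 in adult muscle. Cav1 set against Ptrf, the cavin of all caveolae, gave 1.08 and 0.963, then 1.68 and 1.85, 1.67 and 1.44. Cav3 was thus lower relative to Murc after PN2, and Cav1 was higher relative to Ptrf. Ptrf also belongs to the caveolae of Cav3, and its FPKM was 178, 187, 85.4 and 119, 71.3 and 44.0 in the same order. Cav3 lay above Ptrf at E18.5, at PN2, in PN14 replicate 1 and at PN28. It lay below Ptrf in PN14 replicate 2 and in adult muscle. A ratio of Cav3 to Ptrf was not formed, so the courses given above hold only for the cavin named.

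Of the 15 other caveola genes followed, 1 rose and 0 fell from PN2 to PN14, with a median log2 fold change of 0.29 beside -0.012 for all genes. This was 1 of 15 called, against 23.0% of all genes. The gene that rose was Cav2, the caveolin that pairs with caveolin-1, at 1.01 (SE 0.181, adjusted p = 0.0132), a call lost with DESeq2 size factors, with DESeq2's Wald test and with a filter at a mean of 1 CPM. Its normalized CPM was 30.0 at PN2 and 58.3 and 62.8 at PN14. From E18.5 to adult 2 of the 15 rose and 4 fell, with a median of 0.05, where 21.4% of all genes rose and 23.6% fell. Under library size alone 0 rose and 4 fell from PN2 to PN14 (34.5% of all genes called), and 0 rose and 7 fell from E18.5 to adult (53.6%).

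**Figure D2:**
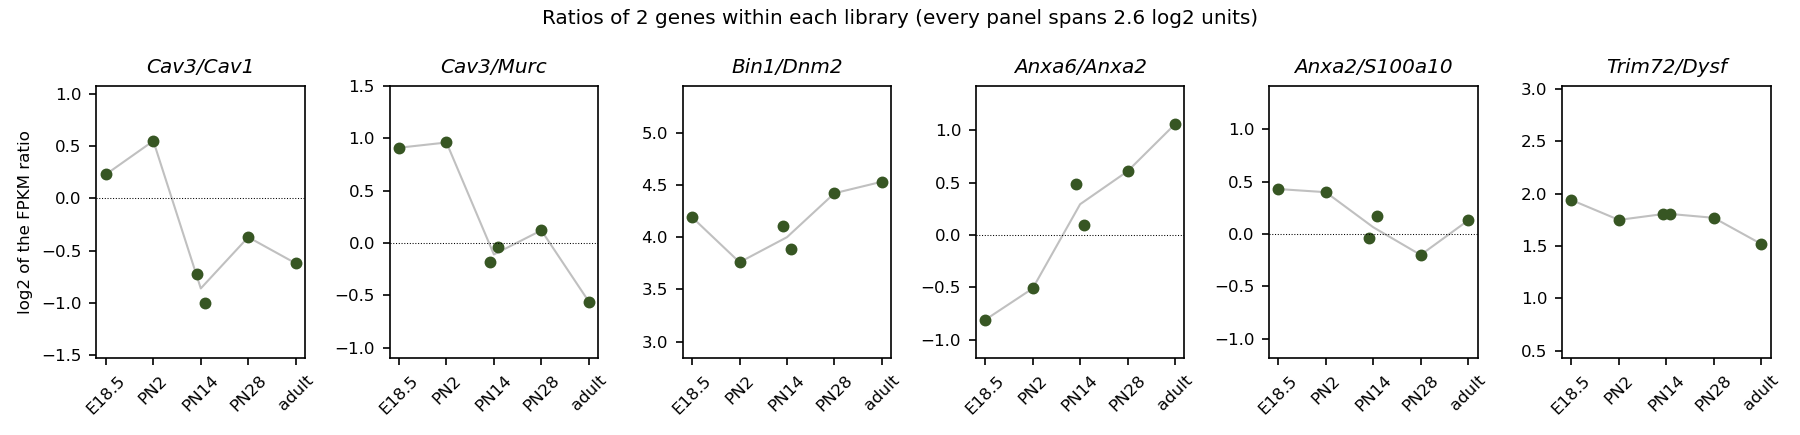
log2 of the FPKM ratio of 2 genes within each library (vertical axis, 2.6 log2 units in every panel) by stage (horizontal axis). Points are libraries, the grey line joins stage values and the dotted line marks equal levels; Cav3/Cav1 and Cav3/Murc step down between PN2 and PN14, Anxa6/Anxa2 steps up, and Trim72/Dysf stays between 2.88 and 3.83 as a linear ratio.

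Mtm1, Dnm2 and Bin1 belong to the T-tubule and to centronuclear myopathy. Mtm1 encodes myotubularin, which removes a phosphate from phosphoinositides on internal membranes. Mtm1 was the least abundant of the 10 genes in every library and the one that rose. Its FPKM was 2.02 at E18.5, 3.09 at PN2, 4.46 and 4.52 for the PN14 pair, 4.02 at PN28 and 4.21 in adult muscle. The 4 later libraries lay close together and all above PN2, which in turn lay above E18.5.

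In normalized CPM, Mtm1 was 4.6 at E18.5, 7.1 at PN2, 17.7 and 15.0 at PN14, 17.1 at PN28 and 19.7 in adult muscle. The log2 fold change was 1.20 from PN2 to PN14 (SE 0.213, adjusted p = 0.0129) and 2.10 from E18.5 to adult (SE 0.243, adjusted p = 0.00190), a level 4.27-fold higher. From E18.5 to PN2 it was 0.62 (SE 0.235, adjusted p = 0.700 and unadjusted p = 0.0389 in edgeR's quasi-likelihood test). Library size alone gave 0.54 from PN2 to PN14, which was not called (adjusted p = 0.295), and a rise of 1.07 from E18.5 to adult, which was (adjusted p = 0.0450). Mtm1 was the 1 member whose level rose from E18.5 to adult under both scalings.

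Mtm1 lies on the X chromosome at chrX:68463942-68568866 in mm9 (+ strand), with 15 exons in its longest coding transcript. E18.5 is the library with females, so sex and stage cannot be told apart where this X-linked gene is compared with E18.5. RefSeq's table lists 3 starts for it, and the 250 bases before the third (chrX:71214824-71215073 on GRCm38.p6, + strand) are shown as those of the called gene that rose, with the same motifs in capitals.
Mtm1 promoter: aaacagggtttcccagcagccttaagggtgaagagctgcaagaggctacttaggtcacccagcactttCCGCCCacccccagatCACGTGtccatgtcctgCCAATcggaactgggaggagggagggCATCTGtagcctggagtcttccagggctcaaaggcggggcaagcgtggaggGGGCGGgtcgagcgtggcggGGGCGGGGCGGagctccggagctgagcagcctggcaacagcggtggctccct
This window held 2 E-boxes, 4 GC boxes, some of them overlapping, and 1 CCAAT box, and its GC content was 64.8% against a median of 52.4% for all windows. The windows before the first and second starts held 1 and 3 E-boxes and 0 and 1 GC boxes. The second window (chrX:71214756-71215005) overlaps the one shown, so their matches are in part the same.

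Dnm2 encodes the dynamin that pinches membrane necks, and excess activity of it harms the T-tubules that Bin1 and Mtm1 maintain. It lies at chr9:21229352-21312203 (+ strand). Its FPKM was 23.3 at E18.5, 29.4 at PN2, 16.8 and 21.3 at PN14, 15.5 at PN28 and 13.99 in adult muscle, and its normalized CPM kept between 55.1 and 72.2. Of the 10 genes it had the smallest range of normalized CPM over the 6 libraries, 0.39 on the log2 scale. The log2 fold change was 0.01 from PN2 to PN14 (SE 0.179) and 0.27 from E18.5 to adult (SE 0.207, adjusted p = 0.309), and both were below 0 with library size alone. Relative to Dnm2, Mtm1 was 0.0868 and 0.105 per gene length at E18.5 and PN2, then 0.265 and 0.212 at PN14, 0.259 at PN28 and 0.301 in adult muscle. This ratio, chosen after the values were seen, was above its perinatal values in all 4 later libraries, with no scaling involved.

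Bin1 encodes the curved protein that tubulates the membrane to form T-tubules, and it lies at chr18:32536871-32595390 (+ strand). It was the most abundant of the 10 genes per length in every library. The FPKM was 424 at E18.5, 399 at PN2, 290.0 and 315 at PN14, 331 at PN28 and 324 in adult muscle. In normalized CPM it was 607 and 571 at E18.5 and PN2 and 941 in adult muscle, with 715 and 649 for the PN14 pair. The log2 fold change from E18.5 to adult was 0.63 (SE 0.417, adjusted p = 0.240) with TMM and -0.39 with library size alone, so no direction is given for Bin1. The table holds 1 value per gene, so the muscle form of Bin1, which depends on an alternative exon, was not analysed here.

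The balance of Bin1 to Dnm2 was 18.2 per gene length at E18.5, 13.6 at PN2, 17.2 and 14.8 at PN14, 21.3 at PN28 and 23.1 in adult muscle. The PN14 replicates thus lay between PN2 and E18.5, and PN28 and the adult lay above all others. The ratio of Bin1 to Mtm1, chosen after the values were seen, was 210.0 and 129 at E18.5 and PN2, 65.0 and 69.7 at PN14, 82.3 at PN28 and 76.9 in adult muscle.

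Among 22 other genes of the T-tubule and of phosphoinositide turnover, 2 rose and 1 fell from PN2 to PN14, with a median log2 fold change of 0.20, where 23.0% of all genes were called. Those that rose were Jph2 and Jph1, the junctophilins that tie T-tubules to the calcium store, at 2.14 (SE 0.491, adjusted p = 0.0249) and 1.59 (SE 0.332, adjusted p = 0.0194). Jph2 had 200.3 normalized CPM at PN2 and 1080 and 686 for the PN14 pair. Dnm1, the dynamin best known from nerve terminals, fell by 1.04 on the log2 scale (SE 0.161, adjusted p = 0.00942). From E18.5 to adult 10 of the 22 rose and 2 fell, with a median of 0.72 beside -0.054 for all genes, where 21.4% of all genes rose and 23.6% fell. Under library size alone 3 rose and 8 fell there (53.6% of all genes called), with a median of -0.30 beside -1.079. From PN2 to PN14, 2 rose and 2 fell under it (34.5%). Jph1, at 0.93, was not among the genes called under that scaling, while Jph2 was.

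**Figure D3:**
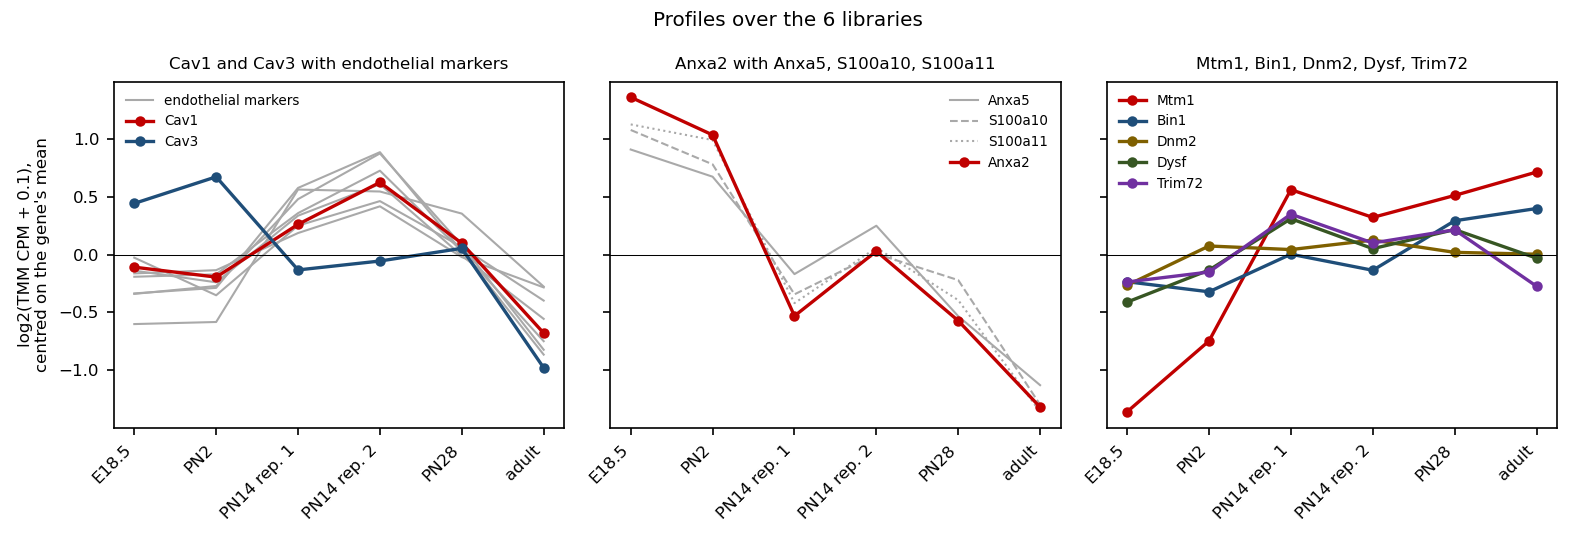
log2 of normalized CPM plus 0.1, centred on each gene's mean (vertical axis), in the 6 libraries (horizontal axis). Left, Cav1 and Cav3 with 7 endothelial markers in grey, where Cav1 runs among them; middle, Anxa2 with Anxa5, S100a10 and S100a11 in grey; right, the T-tubule genes with Dysf and Trim72, where Mtm1 climbs from E18.5 to PN14 while the others keep within 0.72 log2 units of range.

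Dysferlin, a membrane protein with calcium-binding C2 domains, and MG53 (Trim72), which senses oxidation at a tear and gathers vesicles there, start the repair of the fibre membrane. Neither was called in any comparison with TMM. The FPKM of Dysf was 33.1 at E18.5, 40.1 at PN2, 31.4 and 31.5 at PN14, 27.5 at PN28 and 21.1 in adult muscle. That of Trim72 was 127, 134, 110.0 and 111, 93.5 and 60.6 in the same order. Both peaked at PN2 and were lowest in adult muscle on this scale.

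On the TMM scale the log2 fold change from PN2 to PN14 was 0.32 for Dysf (SE 0.256, adjusted p = 0.369) and 0.38 for Trim72 (SE 0.271, adjusted p = 0.316). With library size alone both were below 0, at -0.34 and -0.28, above the -0.662 of all genes. From E18.5 to adult the values were 0.38 for Dysf (SE 0.292, adjusted p = 0.309) and -0.04 for Trim72 (SE 0.308, adjusted p = 0.929) with TMM.

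By root mean square difference, Dysf and Trim72 had the closest profiles of any pair among the 10 genes, at 0.125 log2 units, next to 0.127 for Anxa1 and Anxa6. By Pearson's r over the 6 libraries, 0.86 for Dysf and Trim72, other pairs were closer, such as Anxa2 and Anxa6 at 0.99. Their ratio, chosen after the values were seen, was 3.83 at E18.5, 3.35 at PN2, 3.50 and 3.51 for the PN14 pair, 3.40 at PN28 and 2.88 in adult muscle. It was nearly equal in the PN14 pair, and the adult was the lowest. The genes nearest to Dysf among all others were Dnpep, Camk2d and Dstyk, at 0.0489, 0.0526 and 0.0637 log2 units. Dysf set against its relative Myof, a ferlin of myoblast fusion, was 9.29 and 10.7 per gene length at E18.5 and PN2, 22.9 and 18.6 at PN14, 15.4 at PN28 and 17.0 in adult muscle, so Dysf was the more abundant throughout and by more in the 4 later libraries. Dysf lies at chr6:83958584-84161054 (+ strand) with 55 exons in its longest coding transcript, and Trim72 at chr7:135147503-135154907 (+ strand) with 6. Neither window before the 2 listed Dysf starts held an E-box, while that of Trim72 held 3.

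Annexins bind membranes that expose acidic lipids when calcium enters. Anxa2, which forms a tetramer with S100a10, had the widest range of the 10 genes. Its FPKM was 382 at E18.5, 305 at PN2, 59.55 and 105 for the PN14 pair, 54.0 at PN28 and 29.3 in adult muscle. The 4 later libraries were all below PN2, and at E18.5 the level was second only to Bin1 among the 10 genes. In normalized CPM it was 348, 277, 93.6 and 138, 91.0 and 54.2.

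Anxa2 fell by 1.26 on the log2 scale from PN2 to PN14 (SE 0.289, adjusted p = 0.0249) and by 2.68 from E18.5 to adult (SE 0.367, adjusted p = 0.00272), a level 6.41-fold lower. The PN14 replicates differed by 0.56 log2 units. With replicate 1 or replicate 2 left out, the value from PN2 to PN14 was -1.005 or -1.57. The log2 fold change of Anxa2 from PN28 to adult was -0.75 (SE 0.347, adjusted p = 0.325).

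Anxa2 lies at chr9:69301427-69339602 in mm9 (+ strand), and the 250 bases before its start (chr9:69453433-69453682 on GRCm38.p6, + strand) are shown as those of the called gene with the largest fall, again with motif matches in capitals.
Anxa2 promoter: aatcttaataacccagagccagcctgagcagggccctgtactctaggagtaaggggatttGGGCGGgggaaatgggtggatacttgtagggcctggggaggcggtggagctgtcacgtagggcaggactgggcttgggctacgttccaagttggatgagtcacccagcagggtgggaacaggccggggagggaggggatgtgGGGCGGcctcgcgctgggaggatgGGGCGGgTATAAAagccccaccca
The Anxa2 window held 3 GC boxes, 1 TATA box and 0 E-boxes, whereas that of Cav3, which also fell, held 2 E-boxes and 0 GC boxes.

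Genes for the S100 proteins that partner annexins also had lower values in the later libraries. The FPKM of S100a10 began at 284 before birth and 231 at PN2 and went to 61.2 and 93.4 at PN14, 62.2 at PN28 and 26.8 in adult muscle. The ratio of Anxa2 to S100a10, chosen after the values were seen, was 1.35, 1.32, 0.973 and 1.13, 0.868 and 1.09. With TMM the log2 fold change of S100a10 from PN2 to PN14 was -0.94 (SE 0.209, adjusted p = 0.0231), under the 2-fold threshold and so not called. S100a11, a partner of annexins 1 and 2, fell by 1.15 from PN2 to PN14 (SE 0.235, adjusted p = 0.0184), from 96.2 normalized CPM to 36.1 and 50.4. The genes nearest to Anxa2 were Mfsd10, Efhd2 and Smo, at 0.0332, 0.0593 and 0.0615 log2 units. Markers of other cell types differed between stages too. With TMM, 0 of 6 fibroblast markers were called from PN2 to PN14, though all 6 were below 0, with a median log2 fold change of -0.76. From E18.5 to adult 5 of 6 fell, the exception being Dcn at 0.745 (adjusted p = 0.152 in edgeR's quasi-likelihood test). Of 3 satellite cell markers, 2 fell from PN2 to PN14 and 3 from E18.5 to adult. Among all genes, 11.2% fell from PN2 to PN14 and 23.6% from E18.5 to adult. The summed FPKM of 6 fibroblast markers was 6086.5 at E18.5, 4979.5 at PN2, 1732 and 2046 at PN14, 1865 at PN28 and 516 in adult muscle, and that of 3 satellite cell markers 59.6, 53.0, 11.4 and 17.6, 8.25 and 6.82, with 0 of either list at 0 in any library. The part of these cells in the Anxa2 values was not tested.

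Anxa1 and Anxa6 spanned a narrower range than Anxa2, and neither was called with TMM. The FPKM of Anxa1 (chr19:20447918-20465434, - strand) was 52.65 at E18.5, 59.2 at PN2, 20.9 and 33.4 at PN14, 24.8 at PN28 and 18.3 in adult muscle. Anxa6 (chr11:54792610-54846947, - strand), an annexin with a doubled core that forms the cap over a torn fibre membrane, had 218, 214, 83.75 and 113, 82.7 and 61.2. In both genes the 4 later libraries were below E18.5 and PN2 per gene length. On the TMM scale the log2 fold change from PN2 to PN14 was -0.49 for Anxa1 (SE 0.221, adjusted p = 0.140) and -0.48 for Anxa6 (SE 0.269, adjusted p = 0.214), and from E18.5 to adult -0.50 (SE 0.261, adjusted p = 0.155) and -0.80 (SE 0.318, adjusted p = 0.0758). Leaving out PN14 replicate 1 or 2 gave -0.295 or -0.718 for Anxa1 from PN2 to PN14. Library size alone called both genes in both comparisons.

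Anxa6 and Anxa2 exchanged their order during development. The ratio of Anxa6 to Anxa2 per gene length was 0.570 at E18.5 and 0.704 at PN2, 1.41 and 1.07 for the PN14 pair, 1.53 at PN28 and 2.09 in adult muscle. Anxa2 was thus the more abundant in both perinatal libraries and Anxa6 in the 4 later ones, though in PN14 replicate 2 by little. Anxa1 relative to Anxa2 was 0.138, 0.194, 0.351 and 0.318, 0.459 and 0.627. The fall of Anxa2 was thus the steepest of the 3 annexins in these ratios, for which the difference between genes was not tested.

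Of 27 other membrane repair genes, 3 rose and 2 fell from PN2 to PN14, with a median log2 fold change of 0.01, next to the -0.012 of all genes. This was 5 of 27 called, against 23.0% of all genes. The largest rise was that of Ano5, a membrane protein whose human gene is mutated in a limb-girdle dystrophy, at 4.16 (SE 0.407, adjusted p = 0.00431). Its FPKM was 0.44 at E18.5, 1.20 at PN2, 15.5 and 11.2 at PN14, 19.5 at PN28 and 17.9 in adult muscle. Smpd1, the acid sphingomyelinase released at wounds, rose by 1.24 (SE 0.188, adjusted p = 0.00911). From E18.5 to adult 8 of the 27 rose and 4 fell, with a median of 0.37, which is 12 of 27 called against 44.9% of all genes. Under library size alone 1 rose and 8 fell from PN2 to PN14 (34.5% of all genes called). From E18.5 to adult 3 rose and 10 fell under that scaling (53.6%).

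**Figure D4:**
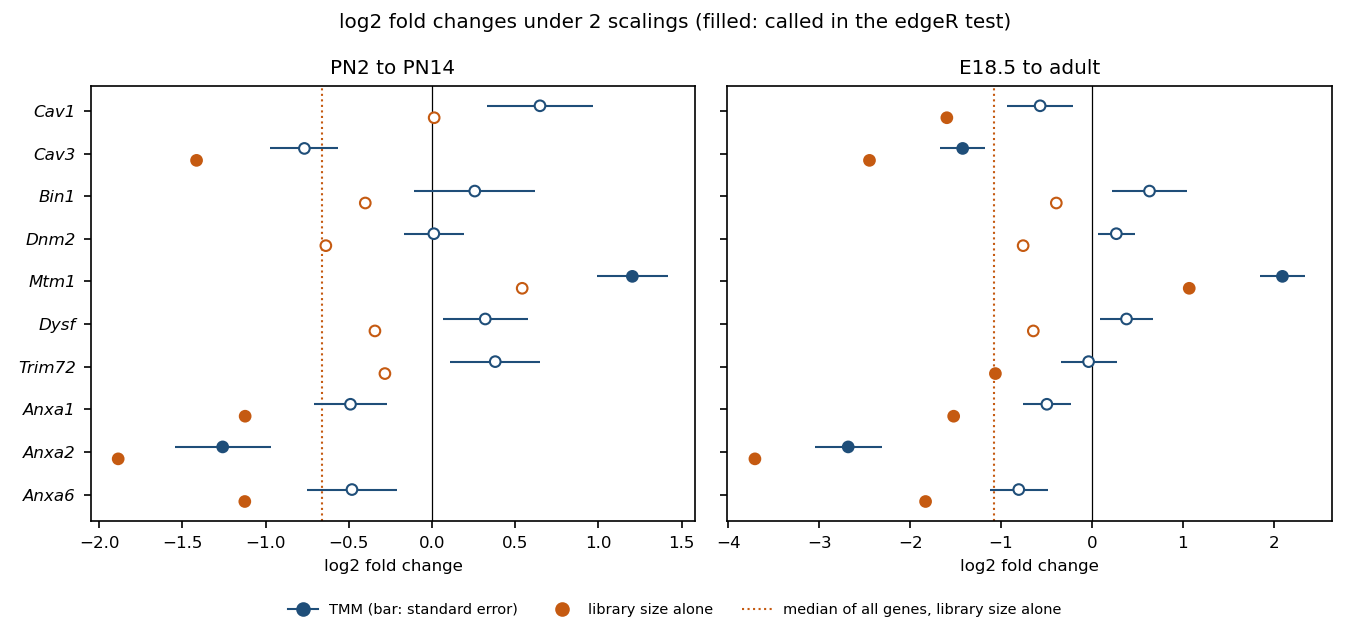
log2 fold change of the 10 genes (horizontal axis) from PN2 to PN14 and from E18.5 to adult, with TMM (blue, bars are standard errors) and with library size alone (orange). Filled points were called and the dotted line is the median of all genes with library size alone, at -0.662 and -1.079; Mtm1 is the farthest right and Anxa2 the farthest left in both panels under both scalings.

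How many of the 10 genes are called depends on the scaling. Scaling by library size alone called 4 from PN2 to PN14, all lower at PN14 (Cav3, Anxa1, Anxa2 and Anxa6), beside 34.5% of all genes. From E18.5 to adult 7 were called, of which Mtm1 was higher and Cav1, Cav3, Trim72, Anxa1, Anxa2 and Anxa6 were lower, beside 53.6% of all genes. The median of the 10 genes was 0.13 from PN2 to PN14 and -0.27 from E18.5 to adult with TMM, and -0.52 and -1.29 with library size alone. Anxa2 was called as lower under both scalings in both comparisons. Cav3 was called as lower under both from E18.5 to adult.

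Ordered by the range of normalized CPM over the 6 libraries, Anxa2 (2.68 log2 units), Mtm1 (2.07), Cav3 (1.65) and Cav1 (1.30) stood apart from the other six, which ran from 0.80 for Anxa6 down to 0.39 for Dnm2. Mtm1 and Anxa2 were the least alike pair, with a root mean square difference of 1.69 log2 units and Pearson's r of -0.95 over 6 libraries.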

How the data were processed

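Polyadenylated RNA of 6 gastrocnemius libraries was analysed from a single deposited table. The authors aligned paired-end reads to mm9 with TopHat 2.0.5 and made the expected counts with RSEM on RefSeq gene models, without normalization. The FPKM values were deposited by the authors beside them and are scaled to gene length and library. Of 23367 entries, 27 had a date in place of a symbol, none of them a gene reported here.

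The expected counts were rounded and tested in R 4.3.3 with edgeR 4.0.16 (TMM, filterByExpr by stage, quasi-likelihood test, 6 libraries and 5 stages in 1 fit). The PN14 pair left 1 residual degree of freedom, the prior added 4.86, and the common biological coefficient of variation was 0.188. The method was tested on simulated data. Those had the same relative spread for every gene and stage, so they do not show how the test fares where spread differs. Standard errors are the log2 fold change divided by the square root of F. Every p-value is two-sided and rests on the difference between 2 mice. The depth was 125402932 to 157868359 counts on genes, and 3 counts correspond to 0.019 to 0.0239 CPM.

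The 10 genes, the lists and the tests were chosen with earlier results of these data known. All 10 genes were named. From the lists, the 2 called genes with the largest rise and the 2 with the largest fall from PN2 to PN14 at 10 CPM or more were named, and for Cav1, Cav3, Dysf and Anxa2 the 3 genes with the nearest profile among genes with a mean of at least 10 CPM. Counts of 2-fold differences used a pseudocount of 0.1 CPM and genes at 1 CPM or more. Markers of myofibres, endothelium, fibroblasts, adipocytes, smooth muscle, myeloid cells, satellite cells and keratinocytes were summed as FPKM, and 1 further marker list is not reported here. Alternatives were library size alone, DESeq2 1.42.0 size factors, DESeq2's Wald test, edgeR's exact test, no filter, a mean of at least 1 CPM, a pseudocount of 1 CPM and each PN14 replicate left out. Positions came from GENCODE M1 on mm9 and promoter sequences from RefSeq on GRCm38.p6, where 8 of the 10 genes matched (Bin1 and Anxa6 did not), read with Python 3.11.15, pandas 2.3.3 and Biopython 1.88.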

Additional observations from a re-analysis of the deposited data

How the results depend on the processing

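With library size alone the called members were 4 from PN2 to PN14 in place of 2, 1 from PN28 to adult in place of 0 and 7 from E18.5 to adult in place of 3, the 2-fold count from PN2 to PN14 was 4 in place of 2, and the lists gave 4 caveola genes in place of 1 and 9 membrane repair genes in place of 5 from PN2 to PN14. With library size alone 34.5% of all genes were called from PN2 to PN14 and 53.6% from E18.5 to adult. The share from PN28 to adult under that scaling was not counted. From PN28 to adult the exact test of edgeR and the Wald test of DESeq2 also gave 1 called member (Cav3). The 1 caveola gene called from PN2 to PN14, Cav2, has a log2 fold change next to the threshold, and the count was 0 with DESeq2 size factors in edgeR, with DESeq2's Wald test and with a mean of at least 1 CPM. Of the 50 log2 fold changes of the members, 12 had the other sign with library size alone, whose construction moves all genes by the median shift: from PN2 to PN14 Bin1 -0.40, Dnm2 -0.64, Dysf -0.34 and Trim72 -0.28, from PN14 to PN28 Cav3 -0.0904, Mtm1 -0.16, Dysf -0.19 and Anxa1 -0.13, from PN28 to adult Bin1 -0.0315, and from E18.5 to adult Bin1 -0.39, Dnm2 -0.76 and Dysf -0.65. Over the other 5 settings, 6 of 250 values had the other sign, all next to 0: Dnm2 from PN2 to PN14 was -0.00395 with DESeq2 size factors and with DESeq2's Wald test, -0.00297 with no filter and -0.0317 with a mean of at least 1 CPM, and Anxa6 from PN14 to PN28 was 0.000709 and 0.000703 with the first 2 of these. Of those 250, 2 were on the other side of the threshold, both for Cav3 from PN28 to adult. Leaving out PN14 replicate 1 or 2 leaves no residual degree of freedom, so it gives values without a test: from PN2 to PN14 Anxa2 ran from -1.57 to -1.005, Mtm1 from 1.08 to 1.32, Cav1 from 0.45 to 0.82, Cav3 from -0.81 to -0.73, Anxa1 from -0.718 to -0.295, Dysf from 0.185 to 0.441, Trim72 from 0.25 to 0.497 and Bin1 from 0.186 to 0.322, and Dnm2 lay at 0.0515 or -0.0341. No paired analysis was possible because each library came from different animals. At 4 of the 5 stages there is 1 library, so their own spread is not known.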

Other observations

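Further cell type markers had these summed FPKM values. The 4 smooth muscle markers were at 318, 291, 154 and 269, 97.2 and 54.2 in the order E18.5, PN2, both PN14 replicates, PN28 and adult. Of these sums Acta2 alone made up 233, 211, 95.0 and 211, 49.5 and 22.1. The 6 macrophage and myeloid markers were at 59.6, 60.4, 34.2 and 47.2, 46.1 and 43.8. There Lyz2 alone made up 29.9, 33.6, 23.9 and 33.5, 33.8 and 33.8. The 6 adipocyte markers summed to 374, 483, 497 and 641, 584 and 377, of which Fabp4 alone made up 372, 424, 479 and 625, 471 and 303. Of the 6, 5 rose from E18.5 to adult in edgeR with TMM, beside 21.4% of all genes. The median log2 fold change of the 6 was 5.39, and Fabp4 was the one not called. The rise was not steady. From PN2 to PN14, 1 rose and 2 fell (11.8% and 11.2% of all genes), and 5 of the 6 were below 0, with a median of -0.69. The 4 keratinocyte markers were at 28.2 at E18.5 and between 0.92 and 3.42 in the other libraries, with 3 of the 4 at 0 in at least 1 library. Their part in the values of the 10 genes was not tested.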
